A study of Mus musculus with 9 samples.

Results

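FoxO transcription factors are held out of the nucleus when phosphoinositide 3-kinase (PI3K) signals, and 10 mouse genes known to be induced by FoxO when PI3K is low were examined in long-term hematopoietic stem cells (LT-HSCs) that had lost PI3K isoforms. The genes were Sesn1, Sesn3, Ccng2, Klf2, Cited2, Txnip, Irs2, Insr, Bcl6 and Fbxo32. They were found by the mouse identifiers that GENCODE M21 pairs with these symbols in a table of read counts for 47643 genes, and all 10 were among the 18205 genes with enough counts to be tested. The rule that names them uses no measured value, but the 10 genes were chosen with earlier results of these data known. The table holds 9 RNA-seq libraries, 3 per genotype, of donor-derived LT-HSCs of C57BL/6 background, sorted as lineage-negative, cKit+, Sca1+, CD150+ cells without Flk2 or CD48. The WT group carried Mx1-Cre and no floxed allele. The δKO group was Pik3ca lox/lox;Pik3cb lox/lox;Pik3cd-/- without a Cre transgene, so that the germline deletion of Pik3cd was its only loss. The TKO group had the same 3 alleles with Mx1-Cre, an interferon-induced Cre that is active in hematopoietic cells and also in other tissues. Marrow of each genotype had been transplanted into lethally irradiated recipients, and every group received pIpC, which induces Mx1-Cre, as 2 injections of 250 μg given 48 hours apart. Cells were collected 4 weeks later, after the marrow of all 7 recipients of a genotype had been combined. The donors, like the B6.SJL recipients, were young mice a few weeks old at transplantation, some host cells can remain after irradiation, and p-values measure the spread between libraries, which may be technical.

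Class IA PI3K makes a membrane lipid that activates the kinase AKT, and AKT phosphorylates FoxO factors, which then leave the nucleus. When PI3K activity is low, FoxO factors stay in the nucleus and induce genes of cell cycle arrest, stress resistance, metabolism and insulin signaling. FoxO factors are known to preserve the quiescence of hematopoietic stem cells and to protect these cells from reactive oxygen species. The comparisons therefore addressed whether the targets of FoxO were higher where PI3K isoforms had been deleted.

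The 9 libraries held 31300343 to 60386097 counts. One δKO library has a number in the count table that no label carries, and it is called the unnumbered δKO library. Levels are given as CPM, counts scaled to a common library size with edgeR's TMM factors. δKO replicate 1 and the unnumbered δKO library detected the fewest genes, 18180 and 18500, against 19703 to 22703 in the other libraries. The 12 HSC markers were detected in every library and summed to 1391 to 1706 CPM in WT, 1432 to 3134 CPM in δKO and 1997 to 2475 CPM in TKO. All 10 neutrophil markers were detected too, at 4944 to 11740 CPM in WT, 262 to 11460 CPM in δKO and 153 to 2998 CPM in TKO. Of the targeted genes, Pik3cb was measured at 25.5 to 33.9 CPM in TKO, 44.6 to 63.6 CPM in WT and 33.2 to 101 CPM in δKO. Pik3cd was measured at 38.5 to 91.2 CPM in δKO and 71.2 to 73.5 CPM in TKO, below the 98.2 to 139 CPM of WT. Pik3ca overlapped between all genotypes, at 45.8 to 65.0 CPM in WT and 52.8 to 68.0 CPM in TKO, and counts over whole genes do not show the loss of single exons.

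FoxO factors bind DNA with the core GTAAACA or the shorter AAACAA, and the promoters of the 10 targets were searched on both strands for both. RefSeq promoters (GRCm38.p6, from 250 bases before to 50 bases after a start site) were at hand for 8 of the 10 genes, in 10 windows. GTAAACA was found in the windows of Txnip and Sesn1, and in 3.65% of all 32851 promoters. The shorter AAACAA, which was added after the sequences had been seen and overlaps GTAAACA in Txnip, was found in windows of Txnip, Irs2, Ccng2 and Sesn1, and in 20.7% of all promoters. The 3 stretches below are shown because they hold the matches of Txnip, of Irs2 and of the first Sesn1 promoter, with the match in capitals.
Txnip, chr3:96557707-96557956, plus strand, the 250 bases before the start: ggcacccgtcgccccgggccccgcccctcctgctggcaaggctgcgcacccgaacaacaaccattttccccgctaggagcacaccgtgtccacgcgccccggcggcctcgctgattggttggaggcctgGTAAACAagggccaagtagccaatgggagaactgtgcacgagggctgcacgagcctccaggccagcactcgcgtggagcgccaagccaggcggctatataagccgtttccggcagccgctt
Irs2, chr8:11008930-11009179, minus strand, the 250 bases before the start: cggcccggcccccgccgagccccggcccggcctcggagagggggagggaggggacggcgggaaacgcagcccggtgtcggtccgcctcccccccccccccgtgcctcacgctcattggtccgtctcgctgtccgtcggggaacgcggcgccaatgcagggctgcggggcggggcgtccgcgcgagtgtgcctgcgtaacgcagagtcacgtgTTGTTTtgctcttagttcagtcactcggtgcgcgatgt
Sesn1, chr10:41810586-41810612, plus strand, the 27 bases around the match: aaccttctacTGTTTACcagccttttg
In Txnip the match begins 121 bases before the start site and reads GTAAACA on the strand of the gene. In Irs2 the match reads TTGTTT on the strand of the gene, 38 bases before the start, which is AAACAA on the other strand. In Sesn1 the match reads TGTTTAC and begins at base 23 from the start. None of these 3 matches lies in an exon of its gene in the mm10 annotation. In Ccng2, AAACAA occurs at 14 and at 8 bases before the RefSeq start, in an annotated UTR. A match is a description of these letters only.

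Levels of different genes were compared per length, as CPM per kilobase of annotated exon. In WT LT-HSCs Klf2 was the highest of the 10, at 72.0 ± 30.7 CPM per kilobase (SD, n = 3), and Cited2 followed at 56.1 ± 20.6. Their libraries overlapped. Txnip (25.7 ± 8.02) lay below all Cited2 libraries and above all libraries of Sesn1 (13.6 ± 1.40). Insr (10.7 ± 2.46), Irs2 (8.41 ± 2.51) and Ccng2 (6.70 ± 2.08) formed a run in which neighbors overlapped, and Sesn1 overlapped with Insr. Sesn3 lay lower, at 4.01 ± 0.106 CPM per kilobase. Bcl6 (1.53 ± 0.700) and Fbxo32 (0.935 ± 0.572) lay below every Sesn3 library and overlapped with each other. Over all 9 libraries, the mean level per length of Klf2 stood at percentile 97.5 of the genes tested, and that of Fbxo32 at percentile 23.1.

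Fold changes are written TKO/WT, TKO/δKO and δKO/WT, with the group named first divided by the other. Between TKO and WT, 7 of the 10 targets had a higher mean in TKO and 3 had a lower mean, and no target passed the test. Irs2, the docking protein of the insulin receptor, was 2.12-fold higher in TKO, where its lowest library exceeded the highest of WT. Sesn1 and Sesn3, which encode sestrins, were 1.42-fold and 1.44-fold higher, also without overlap. Cited2 was 0.574-fold as high in TKO as in WT, without overlap. With edgeR's quasi-likelihood test and Benjamini-Hochberg adjustment over all genes, 0 of the 10 targets had an adjusted p under 0.05 and a change of more than 2-fold, beside 0.00549% of all genes. At an unadjusted p under 0.05 there was 1 target, Irs2, beside 4.19% of all genes. That number was 3 without δKO replicate 1, beside 652 higher and 838 lower of all 19583 genes. It was 2 without the unnumbered δKO library (490 and 647 of 19577) and 4 with only the groups compared in the edgeR fit (813 and 782 of 17548). With DESeq2 it was 5 on the groups compared (1336 and 1326 of 26804) and 2 on all 9 libraries (709 and 800 of 26832). DESeq2 on the groups compared called 1 target, Irs2 (adjusted p = 0.0300), beside 3.11% of all genes, and DESeq2 on all 9 libraries called 0, beside 0.689%. Groups did not overlap for 3 targets that were higher in TKO, beside 6.88% of all genes, and for 1 that was lower, beside 7.47%. The median log2 fold change of the 10 was 0.41, beside 0.017 over all genes, and it fell to 0.13 without TKO replicate 2 and 0.19 without WT replicate 2. The number of higher targets was 6 without WT replicate 2, where Fbxo32 turned. In bulk RNA, fewer cells of a type and less RNA per cell cannot be told apart.

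Between TKO and δKO, the targets were divided. Means were higher in TKO for 4 targets and lower for 6, with a median log2 fold change of −0.098 beside −0.055 over all genes. That of the targets was 0.28 without δKO replicate 1 and −0.35 without δKO replicate 2. The higher targets numbered 3 to 7 with each library left out (7 without δKO replicate 1), 6 with upper-quartile factors and 7 with the replicate block. With genes detected as a covariate 8 targets were higher and 2 lower, with a median of 0.28. The largest differences were those of Fbxo32, 4.22-fold higher in TKO, and Bcl6, 0.261-fold as high, and for both genes the libraries of TKO and δKO did not overlap. Ccng2, a cyclin of cell cycle arrest, was 2.01-fold higher with an overlap of 1 library per group. By edgeR 0 of the 10 were called, beside 0.0% of all genes, and the smallest adjusted p of any gene was 0.465. An unadjusted p under 0.05 was reached by Ccng2 with the higher mean, beside 4.6% of all genes, and by Bcl6 with the lower mean, beside 5.56%. These 2 targets became 0 without the unnumbered δKO library (740 higher and 1146 lower of all 19577 genes). With the replicate block there were also 0 (556 and 679 of 19577). There was 1 without any one of the TKO libraries (670 to 874 and 598 to 913 of 19160 to 19488). There was also 1 with genes detected as a covariate (598 and 362 of 18205). There were 3 without δKO replicate 2 (1758 and 1567 of 19179), with no filter (1298 and 1445 of 27947) and with limma (1024 and 708 of 18205). At least 10 counts in every library gave 3 (435 and 675 of 11605). DESeq2 gave 3 on all 9 libraries (1641 and 1455 of 26832) and 3 on the groups compared (1210 and 964 of 25354). DESeq2 called 0 targets on all 9 libraries, beside 3.27% of all genes, and 0 on the groups compared, beside 1.6%. Groups were apart for 1 target higher (6.98% of all genes) and for 1 target lower (4.74%). The signs of Klf2 and Insr in this comparison turned with upper-quartile scaling, under which the median of all genes went from −0.055 to 0.083.

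Between δKO and WT, 6 targets had the higher mean in δKO and 4 the lower, with a median log2 fold change of 0.37 beside 0.046 over all genes. That of the targets was 0.14 without δKO replicate 1, 0.18 without the unnumbered δKO library and 0.59 without δKO replicate 2. With genes detected as a covariate it turned to −0.16, and 4 targets were higher and 6 lower. Among the targets with the higher mean in δKO, Txnip stood first, at 1.90-fold. Txnip was the only one of the 10 with an unadjusted p under 0.05, beside 7.01% of all genes, 3.65% in the higher and 3.36% in the lower direction. With 1 library left out, there were 4 such targets without δKO replicate 2, beside 1454 higher and 1628 lower of all 19179 genes. There were 2 without the unnumbered δKO library (1116 and 620 of 19577) or WT replicate 3 (355 and 408 of 19183). There were 0 without WT replicate 1 (364 and 544 of 19237) or WT replicate 2 (388 and 525 of 19137). Over the other alternatives there were 0 to 3. The 0 came with upper-quartile scaling (371 and 717 of 18205) and genes detected as a covariate (112 and 174 of 18205). DESeq2 on the groups compared also gave 0 (862 and 1164 of 25860). The 3 came with no filter on low counts (1052 and 1070 of 27947). Sesn3 was 1.78-fold and Irs2 1.63-fold higher in δKO, and Fbxo32 was 0.30-fold as high. By edgeR 0 targets were called, beside 0.00549% of all genes, and DESeq2 called 0 on all 9 libraries (1.1% of all genes) and 0 on the groups compared (1.03%). Groups were apart for none of the 10, beside 4.13% of all genes in the higher and 7.39% in the lower direction. Upper-quartile scaling moved the median of all genes in this comparison from 0.046 to −0.104. The WT libraries serve both comparisons with WT, and the TKO libraries both comparisons with TKO.

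**Figure D1:**
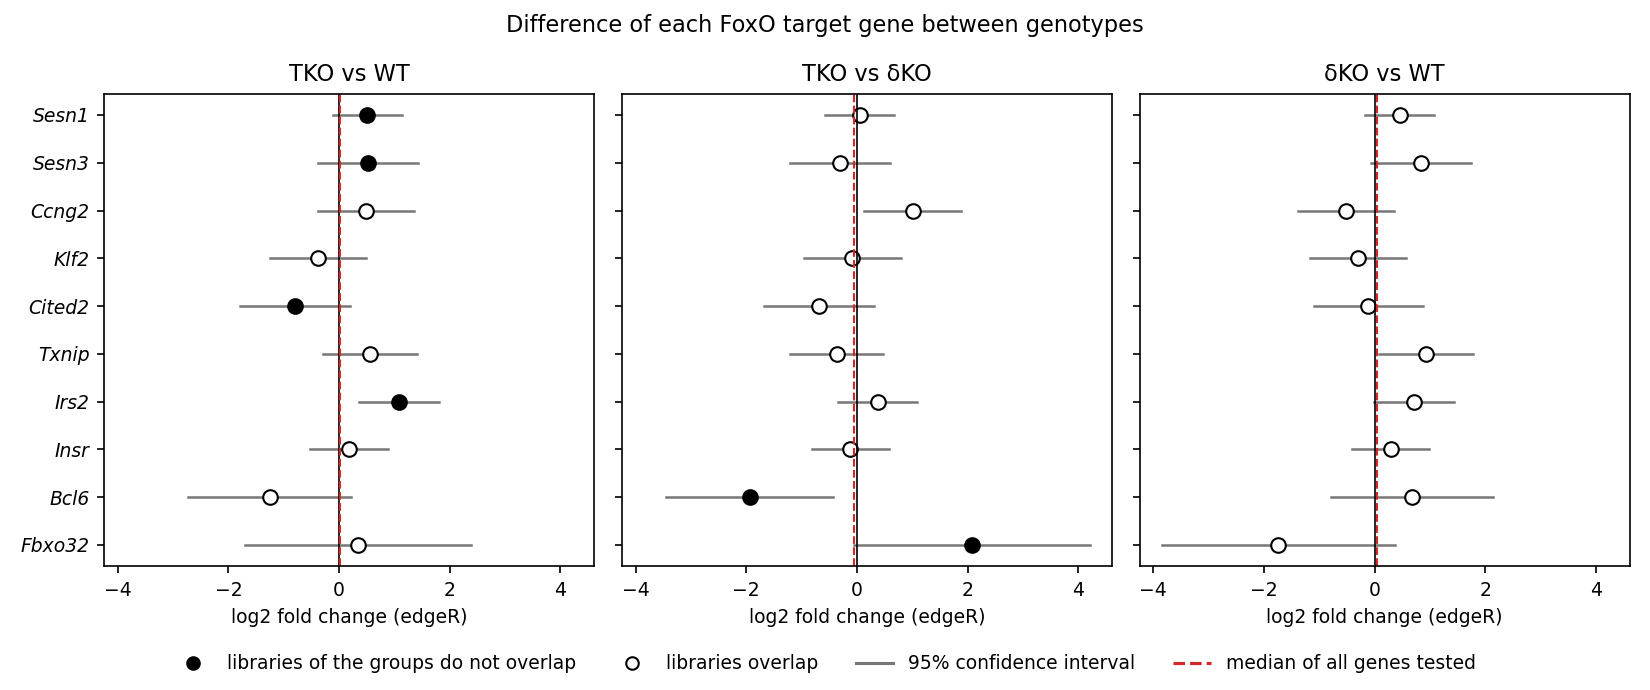
Log2 fold change of each FoxO target gene from edgeR's fit to all 9 libraries, for each pair of genotypes; bars are 95% confidence intervals, filled points mark groups whose 3 and 3 libraries do not overlap, and the dashed line is the median of all genes tested. For TKO/WT the interval of Irs2 (0.36 to 1.81) is above 0, and for TKO/δKO those of Ccng2 (0.13 to 1.88) and Bcl6 (−3.44 to −0.43) exclude 0 before adjustment.

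The 2 targets that act at the top of insulin signaling were Irs2 and Insr. Irs2 (ENSMUSG00000038894.7, chromosome 8, 10984681 to 11008458, minus strand) encodes an adaptor that carries the signal of the insulin and insulin-like growth factor receptors to PI3K. Coordinates are those of mm10. Here and below, values are in the order of replicates 1, 2 and 3 for WT and TKO, and of replicates 1 and 2 and the unnumbered library for δKO. Irs2 was measured at 52.0, 37.9 and 69.6 CPM in WT, at 78.3, 65.1 and 117 CPM in δKO and at 147, 93.1 and 98.5 CPM in TKO. The lowest TKO library was above the highest WT library, and of the δKO libraries 1 lay inside the WT range, 1 between the groups and 1 inside the TKO range. Means of 3 libraries were 53.2 ± 15.9 CPM (SD) for WT, 86.9 ± 27.2 CPM for δKO and 113 ± 29.7 CPM for TKO. Irs2 had a TKO/WT log2 fold change of 1.09 (standard error 0.331, unadjusted p = 0.00686, edgeR adjusted p = 1.00). It ranged from 0.85 to 1.32 with each library left out, and its adjusted p from 0.0300 to 1.00 over the alternatives. The low value, 0.0300, came from DESeq2 on the groups compared. An exact permutation test of mean log2 CPM over the 6 libraries gave p = 0.1, two-sided, which is the smallest that 3 against 3 libraries allow, and the same p was reached by Sesn1, Sesn3 and Cited2 for TKO/WT and by Bcl6 and Fbxo32 for TKO/δKO. Against δKO the log2 fold change of Irs2 was 0.38 (standard error 0.328), and 0.14 without TKO replicate 1 and 0.65 without the unnumbered δKO library. The δKO/WT value was 0.71 (standard error 0.329), and 0.43 without the unnumbered δKO library.

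Insr (ENSMUSG00000005534.10, chromosome 8, 3122061 to 3279617, minus strand) encodes the insulin receptor itself. Its levels were 183, 142 and 116 CPM in WT, 271, 109 and 158 CPM in δKO and 155, 179 and 163 CPM in TKO. The TKO libraries lay close together and inside the range of WT, and δKO held both the highest and the lowest of the 9 values. For Insr the TKO/WT log2 fold change was 0.18 (standard error 0.320, 95% confidence interval −0.52 to 0.88), and against δKO it was −0.12 (−0.82 to 0.58). The TKO/WT value was 0.03 without WT replicate 3, 0.36 without WT replicate 1 and 0.016 with genes detected as a covariate. The sign against δKO turned to 0.30 without δKO replicate 1. For δKO/WT the value was 0.29, and it turned to −0.13 without δKO replicate 1 and −0.31 with the covariate.

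**Figure D2:**
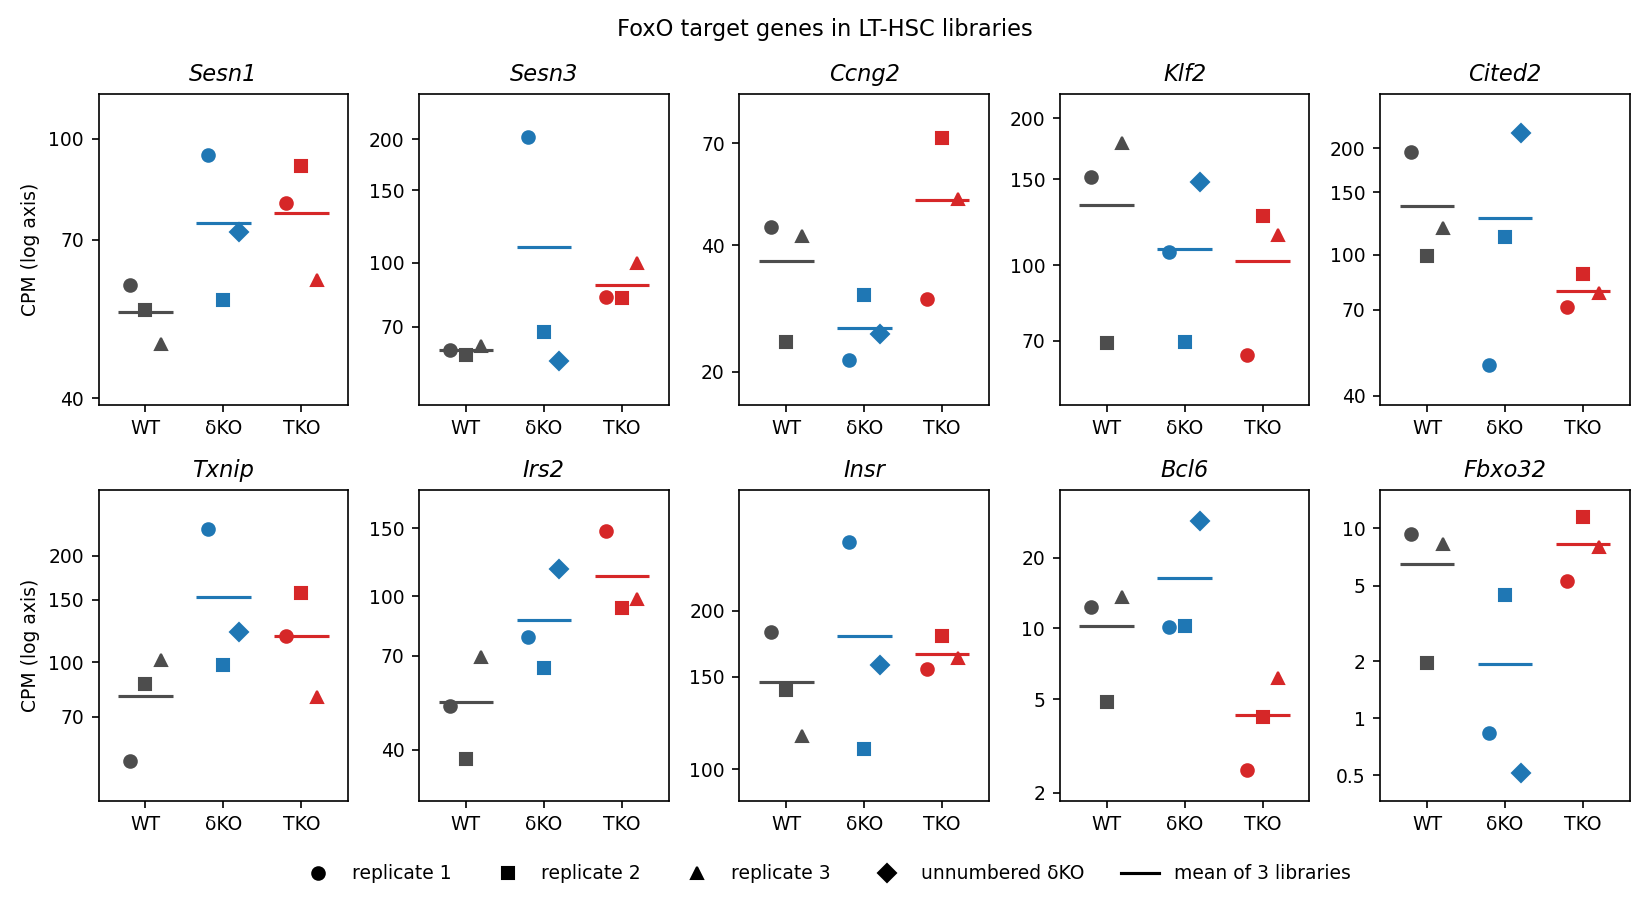
CPM (log axis, own scale in each panel) of the 10 FoxO target genes in each of 3 WT, 3 δKO and 3 TKO libraries; symbols are libraries and lines are means of 3 libraries. Irs2, Sesn1 and Sesn3 lie higher in every TKO library than in any WT library, Cited2 lies lower, and the δKO libraries spread widely for Sesn3, Cited2 and Fbxo32.

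Sesn1, Sesn3 and Txnip are targets that tie FoxO to oxidative stress and nutrient sensing. Sestrins restrain the kinase complex mTORC1 and support antioxidant defense. Sesn1 (ENSMUSG00000038332.12, chromosome 10, 41809935 to 41908424, plus strand) was measured at 59.7, 54.7 and 48.5 CPM in WT, 94.6, 56.6 and 71.8 CPM in δKO and 79.7, 90.9 and 60.7 CPM in TKO. TKO replicate 3 was close to the highest WT library, so the groups were apart by a narrow gap. The log2 fold change of Sesn1 was 0.51 for TKO/WT (standard error 0.285, unadjusted p = 0.103, edgeR adjusted p = 1.00) and stayed between 0.37 and 0.65 with each library left out. Against δKO it was 0.05 (standard error 0.285, 95% confidence interval −0.57 to 0.68), and it turned to −0.11 without δKO replicate 2. The δKO/WT value of Sesn1 was 0.45, and 0.24 without δKO replicate 1 and −0.0040 with genes detected as a covariate.

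Sesn3 (ENSMUSG00000032009.8, chromosome 9, 14275067 to 14333101, plus strand) was measured at 61.5, 59.6 and 62.8 CPM in WT, 202, 68.0 and 57.7 CPM in δKO and 82.4, 82.1 and 99.9 CPM in TKO. The WT libraries were close to each other, at a coefficient of variation of 2.63%, and each TKO library was above them. δKO replicate 1 stood far above the other 8 libraries. For TKO/WT the log2 fold change of Sesn3 was 0.52 (standard error 0.413, unadjusted p = 0.229, edgeR adjusted p = 1.00), and 0.43 to 0.57 with each library left out. Its standard error came from a spread shared by all 9 libraries, δKO replicate 1 included. For δKO/WT it was 0.83, 0.04 without δKO replicate 1 and 0.39 with genes detected as a covariate. For TKO/δKO it was −0.31, 0.48 without δKO replicate 1 and 0.025 with the covariate.

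Txnip (ENSMUSG00000038393.14, chromosome 3, 96557957 to 96561883, plus strand), whose promoter holds the GTAAACA match shown above, encodes a protein that binds thioredoxin and limits glucose uptake. Its libraries were at 52.5, 86.9 and 101 CPM in WT, 238, 98.0 and 122 CPM in δKO and 119, 157 and 79.5 CPM in TKO. All genotypes overlapped, and δKO replicate 1 was again the highest library. Txnip had a δKO/WT log2 fold change of 0.93 (standard error 0.389, unadjusted p = 0.0351, edgeR adjusted p = 0.699), which went to 0.46 without δKO replicate 1 and 0.23 with genes detected as a covariate. For TKO/WT it was 0.56 (standard error 0.386, edgeR adjusted p = 1.00), with a range of 0.30 (without TKO replicate 2) to 0.78 when each library was left out, and 0.28 with the covariate. For TKO/δKO it was −0.37, 0.10 without δKO replicate 1 and 0.049 with the covariate.

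Ccng2 and Fbxo32 had the largest fold changes above 1 for TKO/δKO. Ccng2 (ENSMUSG00000029385.14, chromosome 5, 93267257 to 93276231, plus strand) encodes cyclin G2, an unusual cyclin that is high in resting cells. It was measured at 44.1, 23.5 and 42.1 CPM in WT, 21.3, 30.4 and 24.6 CPM in δKO and 29.9, 72.0 and 51.6 CPM in TKO. The lowest TKO library, replicate 1, was just under δKO replicate 2, and the 2 other TKO libraries were above all WT and δKO libraries. The log2 fold change of Ccng2 for TKO/δKO was 1.01 (standard error 0.399, unadjusted p = 0.0275, edgeR adjusted p = 0.465), and it was 0.67 without TKO replicate 2 and 1.28 without TKO replicate 1. For TKO/WT it was 0.48 (standard error 0.396), 0.15 without TKO replicate 2 and 0.75 without TKO replicate 1. For δKO/WT it was −0.52 (standard error 0.397), and −0.76 to −0.37 with each library left out.

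Fbxo32 (ENSMUSG00000022358.6, chromosome 15, 58175879 to 58214932, minus strand) encodes atrogin-1, a ubiquitin ligase adaptor best known from muscle atrophy, and was the lowest target per length. It was measured at 9.31, 1.95 and 8.31 CPM in WT, 0.838, 4.47 and 0.516 CPM in δKO and 5.28, 11.5 and 8.03 CPM in TKO. The unnumbered δKO library, the lowest, had 14 counts of Fbxo32, and TKO replicate 2, the highest in CPM, had 394. Every TKO library exceeded every δKO library, and WT overlapped with both. The log2 fold change of Fbxo32 for TKO/δKO was 2.08 (standard error 0.975, unadjusted p = 0.0552, edgeR adjusted p = 0.490), and it was 1.62 to 3.60 (without δKO replicate 2) with each library left out. Between δKO and WT it was −1.74, and −3.26 without δKO replicate 2. For TKO/WT the log2 fold change was 0.34 (95% confidence interval −1.71 to 2.39), and it was 0.03 without TKO replicate 2, 0.68 without WT replicate 1 and, with the sign turned, −0.10 without WT replicate 2. The 2 δKO libraries that were low in Fbxo32 were the libraries with the fewest genes detected. With genes detected as a covariate the log2 fold change was 2.06 for TKO/δKO, −1.28 for δKO/WT and 0.79 for TKO/WT, and the part of gene detection in these values was not tested.

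Klf2, Cited2 and Bcl6 encode regulators of transcription. Klf2 (ENSMUSG00000055148.7, chromosome 8, 72319033 to 72321656, plus strand) encodes a zinc finger factor of quiescence in lymphocytes and endothelium. It was measured at 151, 69.3 and 178 CPM in WT, 107, 69.7 and 148 CPM in δKO and 65.4, 126 and 115 CPM in TKO. Each genotype held a library at the low end, WT replicate 2, δKO replicate 2 and TKO replicate 1, and all ranges overlapped. Klf2 had a log2 fold change of −0.38 for TKO/WT (standard error 0.398, edgeR adjusted p = 1.00) and −0.08 for TKO/δKO (95% confidence interval −0.95 to 0.79). The TKO/WT value was −0.11 without WT replicate 3, −0.14 without TKO replicate 1 and −0.69 without WT replicate 2. The sign against δKO turned to 0.21 without the unnumbered δKO library and 0.25 with genes detected as a covariate. The δKO/WT log2 fold change of Klf2 was −0.30, with a range of −0.61 to −0.03 when each library was left out, and −0.76 with the covariate.

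Cited2 (ENSMUSG00000039910.9, chromosome 10, 17723218 to 17725674, plus strand) encodes a transcriptional co-regulator needed for the maintenance of hematopoietic stem cells. It was measured at 195, 99.5 and 119 CPM in WT, 48.8, 112 and 221 CPM in δKO and 71.1, 88.2 and 77.9 CPM in TKO. The TKO libraries were below all WT libraries, and δKO held both the lowest and the highest of the 9. The log2 fold change of Cited2 for TKO/WT was −0.80 (standard error 0.452, unadjusted p = 0.103, edgeR adjusted p = 1.00), and it was −0.47 without WT replicate 1. For TKO/δKO it was −0.69 (standard error 0.452), −0.03 without the unnumbered δKO library, −1.08 without δKO replicate 1 and 0.06 with the replicate block. Between δKO and WT it was −0.11, −0.78 without the unnumbered δKO library and 0.27 without δKO replicate 1.

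Bcl6 (ENSMUSG00000022508.5, chromosome 16, 23965052 to 23988852, minus strand) encodes a transcriptional repressor known from germinal center B cells. Its levels were low, at 12.3, 4.86 and 13.5 CPM in WT, 10.1, 10.3 and 28.8 CPM in δKO and 2.51, 4.19 and 6.15 CPM in TKO. All TKO libraries were below all δKO libraries, and only WT replicate 2 lay among them from the WT group. Bcl6 had a TKO/δKO log2 fold change of −1.94 (standard error 0.689, unadjusted p = 0.0162, edgeR adjusted p = 0.465), and −1.26 without the unnumbered δKO library. With DESeq2 on all 9 libraries its adjusted p was 0.0522, the lowest over the alternatives. For TKO/WT the log2 fold change was −1.26 (standard error 0.676, unadjusted p = 0.0887, edgeR adjusted p = 1.00). For δKO/WT it was 0.68, −0.0048 without the unnumbered δKO library and 0.45 with genes detected as a covariate.

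The 3 libraries with the highest Klf2, the highest Cited2 and the highest Bcl6 were the same: WT replicate 1, WT replicate 3 and the unnumbered δKO library. These were also the libraries with the highest sum of the 10 neutrophil markers, at 11740, 10900 and 11460 CPM, against 153 to 4944 CPM in the other 6. Among those 6, WT replicate 2 and δKO replicate 2 had the highest sums (4944 and 4413 CPM), with Klf2 at 69.3 and 69.7 CPM. Klf2 was higher in δKO replicate 1 (107 CPM, marker sum 262 CPM), TKO replicate 2 (126 and 2998 CPM) and TKO replicate 3 (115 and 875 CPM). Cited2 was higher in WT replicate 2 and δKO replicate 2 (99.5 and 112 CPM) than in the rest of the 6 (48.8 to 88.2 CPM). Bcl6 was at 10.1 CPM in δKO replicate 1 and 10.3 CPM in δKO replicate 2. The marker sum was led by Mpo, at 8958 CPM in WT replicate 1 and 7226 CPM in the unnumbered δKO library, and in WT replicate 3 by Ngp at 3844 CPM. Mpo and Elane, genes of primary granules, are also expressed in early myeloid progenitors. The part of these transcripts in the values of Klf2, Cited2 and Bcl6 was not tested.

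**Figure D3:**
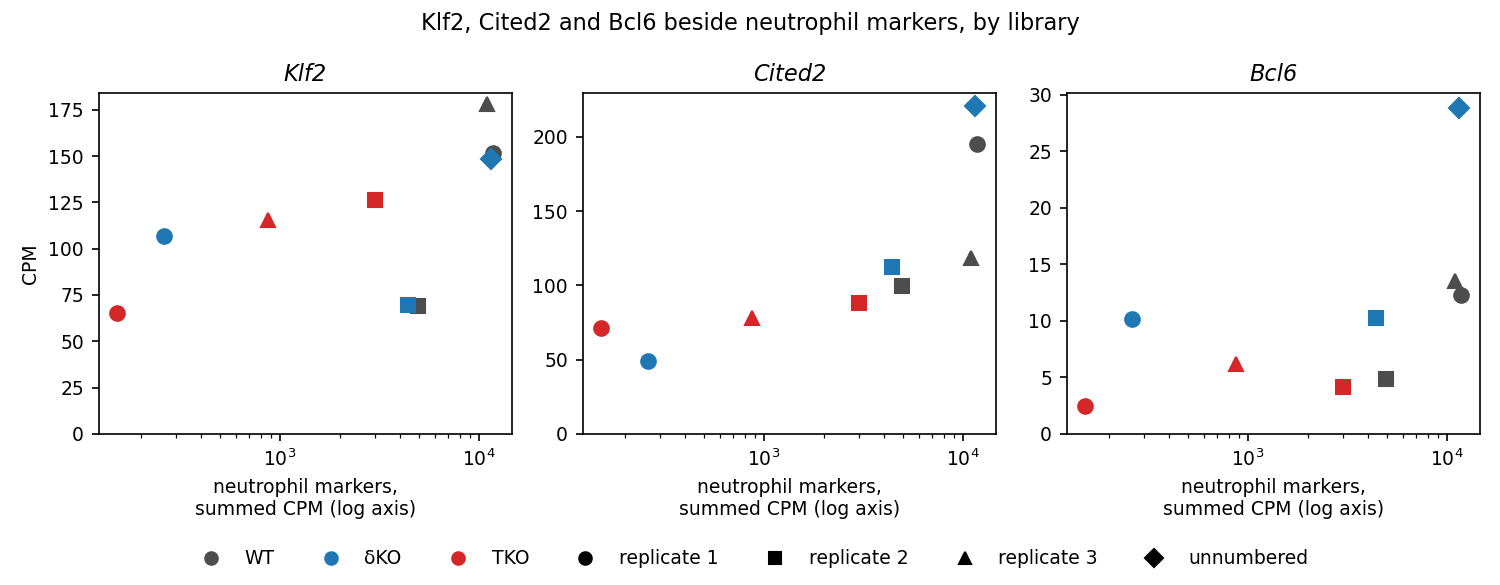
CPM of Klf2, Cited2 and Bcl6 (linear axis from 0) against the summed CPM of 10 neutrophil markers (log axis) in 9 libraries, colored by genotype. WT replicate 1, WT replicate 3 and the unnumbered δKO library lie at the upper right in every panel, and the TKO libraries, at 153 to 2998 CPM of the markers, lie at or below 126 CPM of Klf2, 88.2 CPM of Cited2 and 6.15 CPM of Bcl6.

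The median coefficient of variation of the 10 targets over 3 libraries was 31.1% for WT, 47.5% for δKO and 29.0% for TKO, beside 32.9%, 69.2% and 42.7% over all genes tested. The libraries ranked differently from target to target. δKO replicate 1 was the highest of the 9 libraries for Sesn1, Sesn3, Txnip and Insr and the lowest for Ccng2 and Cited2. The unnumbered δKO library was the highest for Cited2 and Bcl6 and the lowest for Sesn3 and Fbxo32. In WT replicate 2 all 10 targets were below their own mean over the 9 libraries, on the log2 CPM scale, and in TKO replicate 2 there were 8 targets above it. The mean of the 10 centered values was −0.065 ± 0.390 (SD, n = 3) for WT, −0.029 ± 0.109 for δKO and 0.094 ± 0.225 for TKO, and the 3 ranges overlapped.

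**Figure D4:**
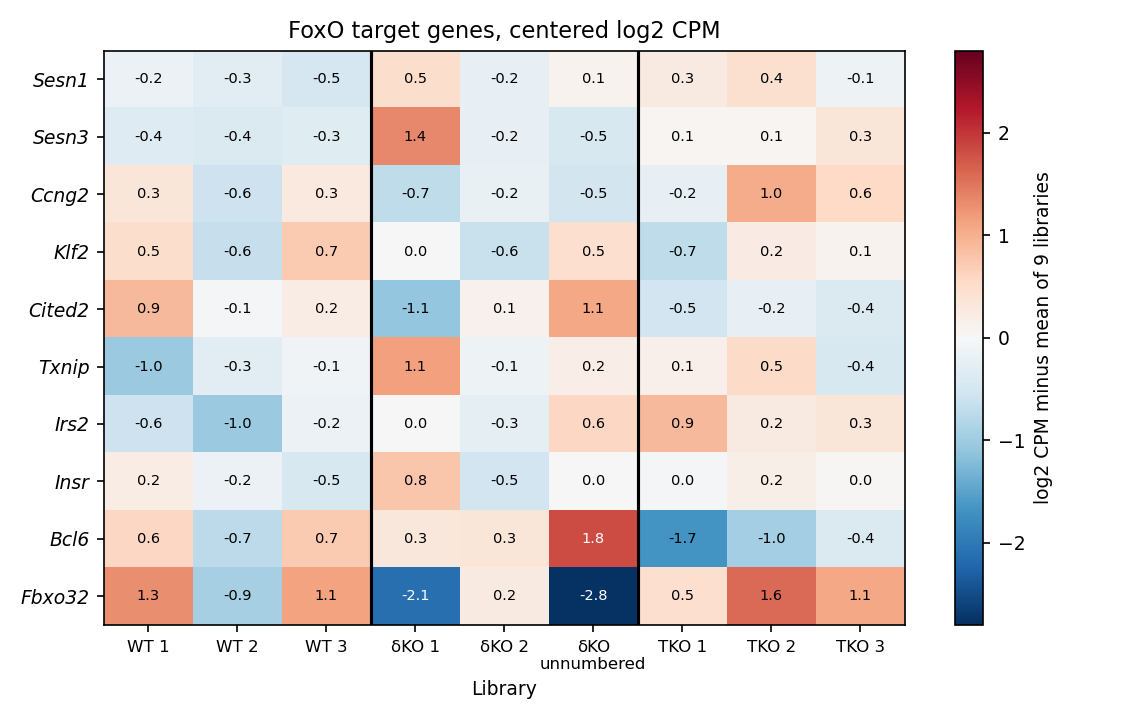
Log2 CPM of each FoxO target gene minus its mean over 9 libraries, by library, with WT, δKO and TKO separated by lines. Fbxo32 (−2.77 to 1.59) and Bcl6 (−1.68 to 1.82) vary most, and Sesn1 (−0.46 to 0.50) varies least.

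Other genes known to be induced by FoxO gave a background for the 10 targets. Of 38 such genes, 32 were tested, and Fasl, Pck1, G6pc, Igfbp1, Il7r and Rag1 had too few counts. For TKO/WT 14 of the 32 had a higher and 18 a lower mean in TKO, with a median log2 fold change of −0.088. For TKO/δKO 15 had a higher and 17 a lower mean, with a median of −0.14. For δKO/WT 16 were higher and 16 lower, with a median of −0.022. By edgeR 0 of the 32 were called in each comparison. DESeq2 on the groups compared called 3 for TKO/WT, beside 3.11% of all genes, 0 for TKO/δKO, beside 1.6%, and 0 for δKO/WT, beside 1.03%. DESeq2 on all 9 libraries called 0, 0 and 0, beside 0.689%, 3.27% and 1.1% of all genes. An unadjusted p under 0.05 was reached for TKO/WT by 2 genes with the higher mean (1.68% of all genes) and by 2 with the lower mean (2.5%). For TKO/δKO it was reached by 0 with the higher mean (4.6% of all genes) and by 4 with the lower mean (5.56%), and for δKO/WT by 1 with the higher (3.65%) and 2 with the lower mean (3.36%). Groups were apart for 3 genes higher (6.88% of all genes) and 7 lower (7.47%) for TKO/WT, for 1 higher (6.98%) and 2 lower (4.74%) for TKO/δKO, and for 3 higher (4.13%) and 2 lower (7.39%) for δKO/WT.

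Among the antioxidant genes, all 4 had a higher mean in TKO in both comparisons. Selenop, which encodes the selenium carrier selenoprotein P, was measured at 50.0, 62.3 and 55.3 CPM in WT, 105, 52.6 and 58.4 CPM in δKO and 91.5, 119 and 77.2 CPM in TKO. The TKO and WT libraries were apart, and the log2 fold change was 0.78 (standard error 0.318, unadjusted p = 0.0313, edgeR adjusted p = 1.00). Cat, which encodes catalase, was measured at 80.6 to 91.0 CPM in WT, 92.6 to 108.5 CPM in δKO and 108.6 to 116.6 CPM in TKO. Every δKO library of Cat was above every WT library. The TKO/WT log2 fold change of Cat was 0.37 (standard error 0.218, unadjusted p = 0.120). Sod2, the mitochondrial superoxide dismutase, overlapped between TKO (55.2 to 68.1 CPM) and WT (55.1 to 58.6 CPM). Among the 6 autophagy genes 3 had the higher and 3 the lower mean for TKO/WT. Gabarapl1, which encodes a protein of the autophagosome, was measured at 85.8 to 102 CPM in WT and 115 to 155 CPM in TKO (log2 fold change 0.55, standard error 0.241, unadjusted p = 0.0426, edgeR adjusted p = 1.00). In δKO it was at 112 to 153 CPM, above every WT library and overlapping with TKO. Bnip3, a receptor of mitophagy, was at 57.0 CPM in δKO replicate 1 and at 6.16 to 12.2 CPM in the other 8 libraries, and its TKO/δKO log2 fold change of −1.83 (unadjusted p = 0.0343) became −0.16 without that library. Pink1, a kinase of mitophagy, was at 10.2 to 27.9 CPM in δKO, below the 31.8 to 47.1 CPM of WT, and at 23.4 to 47.8 CPM in TKO.

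Of the 6 FoxO-induced genes of cell cycle arrest and stress, 5 had a lower mean in TKO than in WT. Gadd45a, a stress sensor, was measured at 18.3, 21.1 and 31.0 CPM in WT, 0.917, 18.1 and 30.0 CPM in δKO and 3.50, 8.20 and 8.77 CPM in TKO. Cdkn2c, an inhibitor of cyclin-dependent kinases, was measured at 9.67 to 11.9 CPM in WT, 0.1995 to 15.96 CPM in δKO and 2.05 to 3.92 CPM in TKO. Both were apart between TKO and WT, with log2 fold changes of −1.78 (standard error 0.891, unadjusted p = 0.0694) and −1.74 (standard error 1.07, unadjusted p = 0.132). The adjusted p of both was 1.00 by edgeR, and DESeq2 on the groups compared gave 0.00532 for Gadd45a and 0.00225 for Cdkn2c. Rbl2, which encodes the pocket protein p130, was higher in each δKO library (125 to 173 CPM) than in any TKO (77.9 to 110 CPM) or WT library (93.5 to 103 CPM). Its log2 fold change for TKO/δKO was −0.67 (standard error 0.238, unadjusted p = 0.0153, edgeR adjusted p = 0.465).

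Of the 4 death genes tested, Pmaip1, which encodes the BH3-only protein NOXA, had the largest difference. It was measured at 6.50, 3.94 and 3.30 CPM in WT, 0.0399, 3.03 and 9.11 CPM in δKO and 0.249, 0.203 and 0.636 CPM in TKO. TKO lay below WT in all libraries, at a log2 fold change of −3.64 (standard error 1.41, unadjusted p = 0.0247, edgeR adjusted p = 1.00), and DESeq2 gave adjusted p-values of 4.84e-05 on the groups compared and 0.144 on all 9 libraries. Tnfsf10 and Bbc3 overlapped between all genotypes. Among the 7 metabolic genes tested 3 had the higher and 4 the lower mean for TKO/WT. Pnpla2, a triglyceride lipase, was at 63.4 to 96.3 CPM in WT, 20.6 to 59.2 CPM in δKO and 44.5 to 48.0 CPM in TKO. Its log2 fold change was −0.73 for TKO/WT (unadjusted p = 0.0738) and −0.87 for δKO/WT (unadjusted p = 0.0383).

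All 5 lymphocyte and homing genes tested had a lower mean in TKO than in δKO. Cxcr4, the receptor that holds stem cells in the marrow, was measured at 72.1, 66.6 and 48.3 CPM in WT, 42.7, 52.0 and 194 CPM in δKO and 30.6, 41.8 and 29.8 CPM in TKO. TKO lay below every WT and every δKO library. Cxcr4 had a log2 fold change of −1.50 against δKO (standard error 0.509, unadjusted p = 0.0126, edgeR adjusted p = 0.465), −0.48 against δKO without the unnumbered library, and −0.87 against WT (unadjusted p = 0.109). The highest WT and δKO libraries of Cxcr4 were WT replicate 1 and the unnumbered δKO library. These 2 also had the highest sums of the neutrophil markers, at 11740 and 11460 CPM. WT replicate 3, with a sum of 10900 CPM, was the lowest WT library of Cxcr4. The part of the neutrophil transcripts in these values was not tested. Of the 5 FoxO-repressed genes, 3 had the higher and 2 the lower mean for TKO/WT, and Id1, Trib3 and Ccnd2 had unadjusted p-values over 0.05 in both TKO comparisons.

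**Figure D5:**
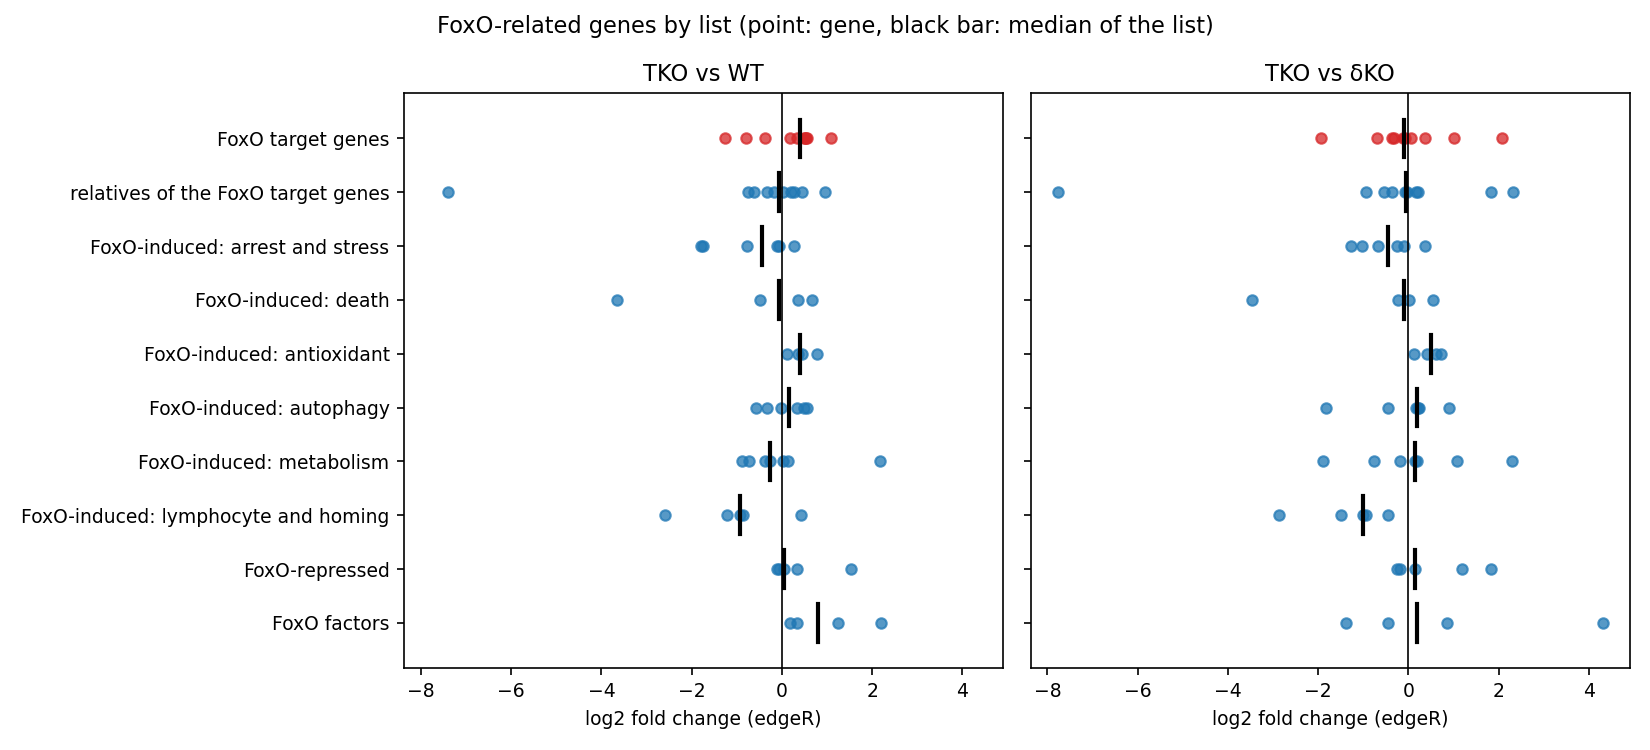
Log2 fold change from edgeR of each gene tested (points) in 10 FoxO-related lists, for TKO/WT and TKO/δKO; black bars are the medians of the lists. The 10 FoxO target genes (red) have a median of 0.41 against WT and −0.098 against δKO, and the point farthest to the left is Cited4, which had 1 count in all TKO libraries together.

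Of the FoxO factors themselves, Foxo3 was measured at means of 184 CPM in WT, 282 CPM in δKO and 207 CPM in TKO. Foxo1 was at 20.7 to 34.9 CPM in 8 libraries and at 187 CPM in δKO replicate 1. In that library Sesn1, Sesn3, Txnip and Insr were the highest of the 9, and Ccng2 and Cited2 were the lowest. It was also the library with the fewest genes detected, 18180, and a link of Foxo1 to these targets was not tested. For Foxo1 the TKO/δKO log2 fold change was −1.38 (unadjusted p = 0.0475, edgeR adjusted p = 0.486), and 0.10 without δKO replicate 1. Foxo4 was measured at 10.4, 8.14 and 13.8 CPM in WT, 3.43, 17.8 and 21.5 CPM in δKO and 38.6, 20.95 and 17.5 CPM in TKO. TKO was above WT without overlap, at a log2 fold change of 1.25 (standard error 0.642, unadjusted p = 0.0763, edgeR adjusted p = 1.00). Foxo6 had 0 to 13 counts in the WT and δKO libraries and 71, 0 and 28 counts in TKO.

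Relatives of the 10 targets were mixed as well. Of 12 relatives 10 were tested, with 5 higher and 5 lower means for TKO/WT, and Irs1 and Trim63 had too few counts. Cited4, a relative of Cited2, had 194, 30 and 48 counts in WT, 1, 48 and 151 counts in δKO and 1, 0 and 0 counts in TKO. With so few counts in TKO its fold change is not given. The unadjusted p was 0.00394 against WT and 0.00311 against δKO, edgeR's adjusted p was 1.00 and 0.465, and the DESeq2 fit to all 9 libraries returned adjusted p-values of 0.0151 and 0.00256. WT replicate 1 and the unnumbered δKO library were again the highest. Arrdc4, a relative of Txnip, was measured at 9.44, 11.8 and 11.5 CPM in WT, 1.75, 6.23 and 4.46 CPM in δKO and 22.8, 7.70 and 13.7 CPM in TKO. All δKO libraries of Arrdc4 were below all WT and all TKO libraries, and its log2 fold change for TKO/δKO was 1.83 (standard error 0.657, unadjusted p = 0.0171, edgeR adjusted p = 0.465, DESeq2 adjusted p = 0.0416 on all 9 libraries). Arrdc3, the other arrestin domain relative, was at 24.3 to 33.8 CPM in TKO, below the 35.8 to 53.5 CPM of WT (unadjusted p = 0.190). In δKO it was at 28.6 to 96.5 CPM.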

How the data were processed

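RNA of 9 libraries of sorted LT-HSCs was amplified with the Ovation RNA-Seq System V2 and sequenced. The authors trimmed reads with Trim Galore 0.3.7, checked them with FastQC 0.11.4, and aligned them to mm10 and counted them per gene with STAR 2.5.1b, and the deposited counts are not normalized. The annotation they used is not given in the sources used here. A second deposited table holds normalized signal, equal to the counts divided by DESeq2 size factors in the 8 columns that could be matched by name. Columns were mapped by name, and 1 δKO column with a number in no label was used without a number.

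Genes were filtered with edgeR's filterByExpr (minimum count 10, minimum total 15), which left 18205. TMM factors and edgeR's quasi-likelihood test (edgeR 4.0.16, R 4.3.3) were applied to the 9 libraries together, with Benjamini-Hochberg adjustment over all genes tested. Called genes had an adjusted p under 0.05 and changed by more than 2-fold. Standard errors and 95% confidence intervals come from that fit. CPM per kilobase used exon lengths of GENCODE M21 (mm10), and 47224 of 47643 identifiers matched without their version. Promoters came from RefSeq (GRCm38.p6). The alternatives were RLE and upper-quartile factors, no filter, at least 10 counts in every library, the replicate number as a block, only the groups compared, DESeq2 1.42.0 with all libraries or with the pair of genotypes, genes detected as a covariate, limma 3.58.1 on log2(normalized signal + 1), and each of 9 libraries left out. The code was tested on simulated data. Figures were drawn with matplotlib 3.10.9.

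The 10 genes and all lists were chosen with earlier results of these data known. All 10 were named with every library, related lists are described by counts, with up to 3 genes each that had the lowest unadjusted p for TKO/WT or TKO/δKO, and Foxo3, Mpo, Ngp and Elane were named after their values were seen. Some genes that the rule would name are not reported here. Libraries of a genotype differed by more than counting error. Interval bounds cover the spread between libraries, and depth was 31300343 to 60386097 counts per library.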

Additional observations from a re-analysis of the deposited data

How the results depend on the processing

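Each comparison of each target was recomputed under 19 alternatives, which gave 570 values. Of these, 545 kept their sign and their side of the threshold, 24 changed sign, and 1, Irs2 for TKO/WT with DESeq2 on the groups compared (log2 fold change 1.10, DESeq2 adjusted p = 0.0300), passed the threshold. In 19 of the 30 comparisons of a target no alternative changed the sign. The count of genes called for TKO/WT was 1 (Zfp990, also the 1 gene called for δKO/WT), and 9 with only the groups compared, 125 with DESeq2 on all libraries, 574 with DESeq2 on the groups compared, and 1 to 4 with each library left out (4 without δKO replicate 1). For TKO/δKO it was 0, and 546 and 267 with DESeq2 on all libraries and on the groups compared. For δKO/WT it was 1, and 0 with only the groups compared, 188 with DESeq2 on all libraries and 194 with DESeq2 on the groups compared. The cause of these differences was not tested. The median log2 fold change of the 10 targets for TKO/WT, 0.41, was 0.13 to 0.52 with each library left out. For TKO/δKO the median, −0.098, went to 0.073 with upper-quartile factors, 0.078 with the replicate block, 0.28 with genes detected as a covariate, and −0.35 to 0.28 with each library left out. For δKO/WT it went from 0.37 to −0.16 with genes detected as a covariate.

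For TKO/δKO, genes detected as a covariate turned Sesn3 to 0.025, Klf2 to 0.25, Txnip to 0.049 and Insr to 0.32, upper-quartile factors turned Klf2 to 0.077 and Insr to 0.069, and at least 10 counts in every library turned Klf2 to 0.0066. The replicate block turned Klf2 to 0.10, Cited2 to 0.059 and Insr to 0.0049. For δKO/WT, the covariate turned Sesn1 to −0.0040 and Insr to −0.31. With each library left out, values of TKO/δKO ranged from −0.11 to 0.26 for Sesn1, −0.62 to 0.48 for Sesn3, −0.32 to 0.21 for Klf2, −0.62 to 0.10 for Txnip and −0.38 to 0.30 for Insr. Those of TKO/WT ranged from −0.10 to 0.68 for Fbxo32. Those of δKO/WT ranged from −0.78 to 0.27 for Cited2, −0.13 to 0.55 for Insr and −0.0048 to 0.94 for Bcl6.

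Libraries with the same replicate number did not deviate together: the correlation of their deviations from the group means was −0.036 to 0.083. The replicate block, without the unnumbered δKO library, called 1, 0 and 1 genes for TKO/WT, TKO/δKO and δKO/WT, and none of the 10 targets.

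With 3 libraries per genotype, the 95% confidence interval of the TKO/WT log2 fold change was −0.12 to 1.13 for Sesn1 and −1.71 to 2.39 for Fbxo32, and a 2-fold difference of Fbxo32 in either direction lay within its interval.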

Other observations

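Genes around the 10 targets gave the following values. Of the 6 kinases between PI3K and FoxO, 5 had the higher mean for TKO/WT. Akt2 was at 79.0 to 102 CPM in WT and 111 to 136 CPM in TKO (unadjusted p = 0.103). In δKO Akt2 was at 108 to 172 CPM, above every WT library and overlapping with TKO. Akt1 overlapped between TKO (59.7 to 97.3 CPM) and WT (62.4 to 94.2 CPM). Of the 5 genes linked to Txnip, 5 had the lower mean for TKO/WT. Txn2, mitochondrial thioredoxin, was measured at 34.0, 33.1 and 30.2 CPM in WT, 58.2, 52.6 and 41.6 CPM in δKO and 24.2, 20.3 and 26.9 CPM in TKO. The 3 genotypes were in separate ranges, with δKO highest and TKO lowest. For Txn2 the log2 fold change for TKO/δKO was −1.09 (standard error 0.307, unadjusted p = 0.00406, edgeR adjusted p = 0.465, DESeq2 adjusted p = 0.000895 on all 9 libraries), and it ranged from −1.22 to −0.99 with each library left out. Txn1, cytosolic thioredoxin, and Mlxipl overlapped between all genotypes.

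Of the 8 p53 targets listed because Sesn1 is also induced by p53, 4 had the higher and 4 the lower mean for TKO/WT, and 5 and 3 for TKO/δKO. Eda2r was measured at 1.37 to 2.43 CPM in TKO, above the 0.269 to 0.834 CPM of WT and the 0 to 0.356 CPM of δKO (unadjusted p = 0.209 against WT and 0.0519 against δKO, edgeR adjusted p = 1.00 and 0.490). Cdkn1a and Mdm2 overlapped between all genotypes. Bcor and Ncor1, cofactors of Bcl6, had unadjusted p-values over 0.05 in both TKO comparisons, with log2 fold changes of −0.33 to 0.46.

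Markers of other cells were summed in each library. The 6 T and NK cell genes summed to 3.95 to 232 CPM with Cd3e, Cd3g and Cd8a at 0 in all 9 libraries. Nkg7, at 3.75 to 231 CPM, made up most of that sum in each library, and Cd3d and Cd4 were each under 9 CPM. The sums were 4.68 to 12.0 CPM for 6 B cell genes, 3.88 to 105 CPM for 7 erythroid genes, 42.3 to 110 CPM for 6 endothelial genes, 90.8 to 265 CPM for 5 megakaryocyte genes and 19.1 to 341 CPM for 6 macrophage and monocyte genes. The endothelial sum was 104 to 110 CPM in TKO, 67.0 to 108 CPM in δKO and 42.3 to 57.0 CPM in WT. In this sum both mutant groups lay above WT and overlapped with each other. Tie1 made up most of it in each library, at 25.5 to 39.0 CPM in WT, 60.0 to 86.6 CPM in δKO and 58.7 to 80.4 CPM in TKO. Cdh5 and Plvap reached at most 0.445 and 0.531 CPM. Of the 5 endothelial genes tested, 5 had the higher mean for TKO/WT. For δKO/WT 2 had the higher and 3 the lower mean.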
